A study of Mus musculus with 4 samples.

Results

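The 40 genes described here act in the G2 and mitotic phases of the cell cycle. They encode the cyclins and kinases that start mitosis, kinetochore and spindle proteins, the proteolytic machinery of mitotic exit, and cytokinesis factors. They were taken by symbol from the count table of the series, where all 40 were matched among 24421 genes. All 40 passed the filter on low counts, which left 13296 genes for testing. RNA came from LSK cells, a bone marrow fraction sorted as lacking lineage markers and bearing Sca1 and Kit, in which the stem cells of the blood and their first multipotent progeny reside. There were 2 libraries from mice with 1 mutant p53 allele, R248W, beside a normal allele (p53R248W/+) and 2 from wild-type mice (WT). All mice were aged 13 to 15 months. The labels name no treatment, and they do not say how the allele was made or whether each library is a separate animal. The spread that the p-values rest on may therefore be technical.

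Before division a cell in G2 accumulates cyclin B with its kinase Cdk1, and the activated complex drives chromosome condensation and spindle assembly. The spindle checkpoint then holds the anaphase-promoting complex in check until all kinetochores are attached, after which cyclin and securin are degraded and the cell divides. Most of these genes are transcribed only in cycling cells and peak late in the cycle, so their RNA is low in a resting population. Hematopoietic stem cells are mostly resting, while the multipotent progenitors in the same gate cycle more often. The late genes are known to be switched by the MuvB complex, which represses them when joined to E2F4 and p130 and activates them when joined to B-Myb and Foxm1. It binds the cell cycle genes homology region (CHR), and the factor NF-Y binds CCAAT boxes nearby. p53 is known to repress many of these genes through its target Cdkn1a, which encodes the inhibitor p21.

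Promoter sequences (RefSeq, GRCm38.p6, 250 bases before to 50 after the start) were matched for 34 of the 40 genes, all but Ccna2, Cdc25c, Foxm1, Aurkb, Tpx2 and Kif20a. The core CHR letters TTTGAA were found on either strand in 25 of these 34 promoters (73.5%), against 17.9% of 32817 promoters of that length. The 34 are 1 promoter per gene, the nearest to the counted first exon, whereas the 32817 can hold several starts of a gene. The shares are thus over unlike sets. CCAAT was found on either strand in 26 of 34 (76.5%), against 37.4% of all promoters. Both were present in 22 of 34 (64.7%), against 6.94% of all. A TTTGAA match overlapped a CCAAT match in 1 of the 34, Cdca8, against 46 of 32817 promoters. In Ube2c 2 CCAAT matches on opposite strands overlapped each other. A match is a description of these letters and not of a bound site. The stretches below run from 120 bases before to 50 after the RefSeq start. They show Plk1 and Aurka, which had the 2 most negative log2 fold changes of the 40. They also show Racgap1 and Cenpa, for which both p53R248W/+ values lay below both WT values, and Ccnb2, Sgol1 and Mad2l1, which had positive log2 fold changes. Capitals mark TTTGAA and CCAAT on the strand shown, or their reverse complements TTCAAA and ATTGG.
Plk1 (chr7:122159315-122159484, plus strand): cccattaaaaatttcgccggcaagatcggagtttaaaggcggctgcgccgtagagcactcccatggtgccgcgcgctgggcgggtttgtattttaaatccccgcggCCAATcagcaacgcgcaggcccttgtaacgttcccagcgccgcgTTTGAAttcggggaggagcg
Aurka (chr2:172370521-172370690, minus strand): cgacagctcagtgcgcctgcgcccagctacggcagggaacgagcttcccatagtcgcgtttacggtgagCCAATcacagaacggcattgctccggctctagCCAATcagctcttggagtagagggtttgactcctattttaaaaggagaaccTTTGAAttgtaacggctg
Racgap1 (chr15:99651607-99651776, minus strand): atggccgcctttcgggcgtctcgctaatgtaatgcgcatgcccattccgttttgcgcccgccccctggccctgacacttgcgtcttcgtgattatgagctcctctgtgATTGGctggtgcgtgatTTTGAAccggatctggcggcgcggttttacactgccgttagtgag
Cenpa (chr5:30666766-30666935, plus strand): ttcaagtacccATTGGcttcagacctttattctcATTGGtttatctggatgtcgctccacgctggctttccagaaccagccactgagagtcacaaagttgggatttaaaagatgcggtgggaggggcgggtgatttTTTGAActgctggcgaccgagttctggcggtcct
Ccnb2 (chr9:70421505-70421674, minus strand): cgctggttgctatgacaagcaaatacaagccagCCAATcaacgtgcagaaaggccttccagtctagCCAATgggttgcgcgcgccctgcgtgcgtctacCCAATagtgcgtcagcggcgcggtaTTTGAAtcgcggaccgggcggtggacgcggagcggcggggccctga
Sgol1 (chr17:53689266-53689435, minus strand): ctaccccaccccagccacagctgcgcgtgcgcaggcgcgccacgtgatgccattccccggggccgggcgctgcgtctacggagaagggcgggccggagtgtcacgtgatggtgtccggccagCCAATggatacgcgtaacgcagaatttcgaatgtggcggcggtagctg
Mad2l1 (chr6:66535101-66535270, plus strand): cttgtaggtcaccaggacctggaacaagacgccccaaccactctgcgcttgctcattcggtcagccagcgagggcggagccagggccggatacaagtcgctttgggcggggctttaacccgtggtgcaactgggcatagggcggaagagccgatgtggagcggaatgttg
Plk1 held TTTGAA at position 31, counted from 1 at the start site, and Aurka held it at position 33. Racgap1 held it at position 6, Cenpa at position 17 and Ccnb2 at position 5. Sgol1 held a single CCAAT in this stretch and no TTTGAA, and the Mad2l1 stretch held neither. The stretches shown are examples and do not represent the 40 genes. Among genes with positive log2 fold changes, Cdca8, Top2a, Bub1b, Ect2 and Kif23 also held TTTGAA in their matched promoters. Bub1, lower in both p53R248W/+ libraries, held none in its matched promoter. For Mad2l1 the RefSeq start lies 247 bases before the first exon of the count table. For Kif2c, 1 of the 25 genes with TTTGAA, the matched start lies 3852 bases from the first exon start, within the counted gene. The median log2 fold change was -0.30 for the 25 genes with TTTGAA and -0.25 for the 9 without, with ranges from -1.15 to 0.42 and from -0.72 to 0.24.

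Raw counts per library ranged from 12111126 to 14820759, and 3 counts equalled between 0.202 and 0.248 CPM, the unit of counts after division by TMM-scaled library totals. Trp53, the gene that carries the mutation, was at 245 and 332 CPM in p53R248W/+ cells against 361 and 302 CPM in WT cells, and these counts do not tell its alleles apart. Kit, which encodes the sorted receptor, was at 1181 and 1104 CPM in p53R248W/+ cells against 910.0 and 997 CPM in WT cells. Of the 12 genes in the LSK identity list, all were above 0 in every library. The 40 mitosis genes stood apart by library: p53R248W/+ replicate 1 was the lowest of the 4 libraries for 32 of them, and WT replicate 2 the highest for 25. Over all tested genes the same libraries were lowest for 27.3% and highest for 22.0%.

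Mitosis and G2/M transcripts did not pass the test between the genotypes, and their levels differed widely between the libraries of a genotype. Their summed level was 2232 and 4183 CPM in p53R248W/+ cells against 2918 and 4479 CPM in WT cells. The groups overlapped, with p53R248W/+ replicate 1 lowest and WT replicate 2 highest. As a share of each library's counts the 40 genes held 0.223% and 0.419% in p53R248W/+ cells, against 0.288% and 0.453% in WT cells. The 95% Wilson intervals of these shares were 0.221 to 0.226% and 0.415 to 0.422% in p53R248W/+ cells, and 0.285 to 0.291% and 0.450 to 0.457% in WT cells. They cover counting error only. In these bulk libraries, fewer cycling cells and less of this RNA per cycling cell cannot be told apart.

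The contrast of p53R248W/+ with WT cells addresses how 1 mutant p53 allele relates to the transcripts of aged LSK cells. With edgeR's quasi-likelihood test, 0 of the 40 genes were called at an adjusted p under 0.05, where 0% of all tested genes were called. At an unadjusted p under 0.05 there were also 0 of 40, where 2.86% of all genes were lower and 3.01% higher at that level. DESeq2 also called 0 of the 40 (0.0451% of all genes, 6 in number), with 0 at an unadjusted p under 0.05 (3.05% of all genes lower and 2.87% higher). Limma-voom called 0 of the 40 (0% of all genes) and placed 3 of them, Aurka, Plk1 and Tacc3, lower at an unadjusted p under 0.05 (2.35% of all genes lower and 2.3% higher). Of all tested genes, edgeR called 0, with 780 at an unadjusted p under 0.05, against 787 by DESeq2 and 618 by limma-voom. The log2 fold change was negative for 32 of the 40, where 50% of all tested genes had a negative value. Its median was -0.29, against -0.000088 over all tested genes, and the values ranged from -1.15 to 0.42. Both p53R248W/+ libraries were below both WT libraries for 6 of the 40 genes (16.6% of all genes), and above them for 1 of the 40 (16.9% of all genes). The 6 were Plk1, Bub1, Kif20a, Racgap1, Cenpa and Cdca3, and the 1 was Sgol1. Neither share was larger than that of the whole table.

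The median and the count depended on single libraries. Each fit without 1 library leaves the replicate numbers unequal between the genotypes. Both libraries numbered 2 were above both numbered 1 for 28 of the 40 genes, so these fits cannot separate genotype from that order. With the replicate number as a block, the median was -0.27 and 33 of 40 genes were negative, but no label says that the numbers pair samples. Without p53R248W/+ replicate 1 the median was 0.12 and 16 of 40 genes had a negative value. Without WT replicate 2 they were 0.054 and 18 of 40. The median was -0.82 without p53R248W/+ replicate 2 and -0.56 without WT replicate 1, with 37 of 40 genes negative in each case. At an unadjusted p under 0.05 there were 18 of the 40 genes without p53R248W/+ replicate 2 (6.73% of all genes), all lower, and 5 without WT replicate 1 (3.06% of all genes), also lower: Bub1, Cenpf, Foxm1, Hmmr and Tpx2. There was 1 without WT replicate 2, Ccnb2, with a positive value (7.41% of all genes), and 0 without p53R248W/+ replicate 1 (2.46% of all genes). None of the 40 was called in these 4 fits. The direction of 28 of the 40 genes turned when at least 1 library was left out. The sign of the other 12 was the same in all 4 such fits, although several values came close to 0. The log2 fold changes ran for Plk1 from -1.77 to -0.66, Aurka from -3.49 to -0.12, Foxm1 from -1.58 to -0.053, Bub1 from -0.81 to -0.29, Cenpa from -0.32 to -0.17 and Sgol1 from 0.093 to 0.40. They ran for Hmmr from -1.05 to -0.26, Tacc3 from -1.85 to -0.015, Cdc20 from -0.61 to -0.0089, Cdca3 from -0.83 to -0.12, Kif20a from -1.08 to -0.68 and Racgap1 from -1.10 to -0.19. Cdc20, Tacc3 and Foxm1 were nearest to 0, at -0.0089 without p53R248W/+ replicate 2, -0.015 without p53R248W/+ replicate 1 and -0.053 without WT replicate 2.

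**Figure D1:**
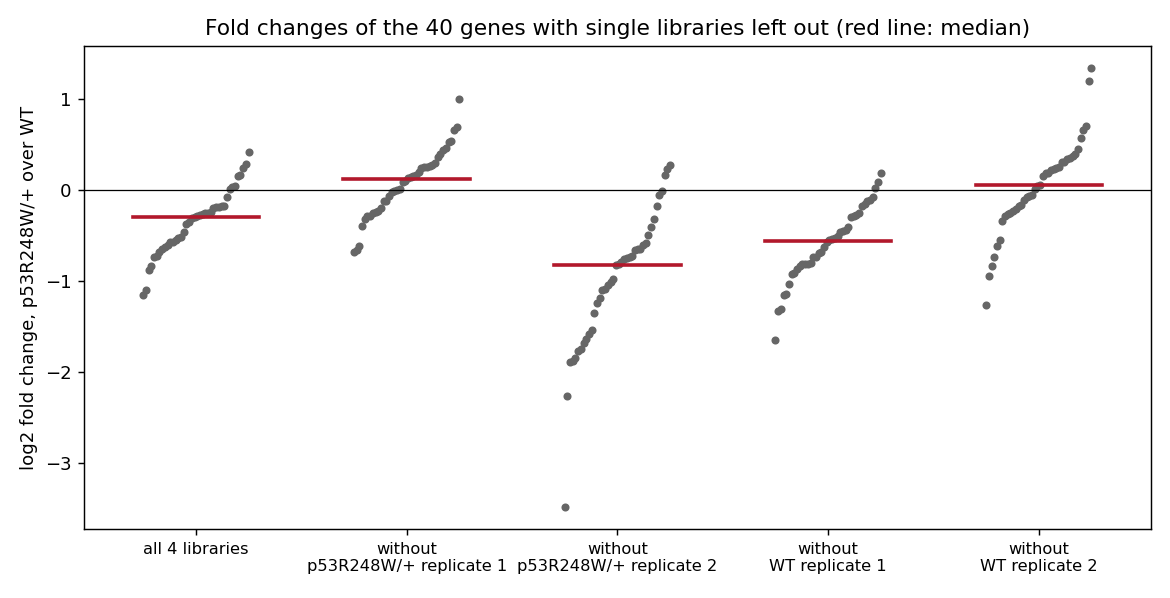
Log2 fold changes (p53R248W/+ over WT, y axis) of the 40 mitosis and G2/M genes in the fit of all 4 libraries and in the 4 fits that leave out 1 library each; each point is a gene, sorted within a column, and the red line is the median. The median lies below 0 with all libraries (-0.29) and above 0 without p53R248W/+ replicate 1 (0.12) or without WT replicate 2 (0.05). Each of the 4 fits leaves the replicate numbers unequal between the genotypes.

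The larger replicate gap exceeded the gap between genotype means for most of the 40 genes, as for most of all tested genes. On the log2(CPM + 0.5) scale, the larger of the 2 replicate differences exceeded the difference of the genotype means for 36 of 40, against 78.4% of all tested genes. This measure favours the replicate side, since it takes the larger of 2 single-library differences, and it does not show how variation is shared. In p53R248W/+ cells, replicate 2 was above replicate 1 for 37 of 40 genes, with a median difference of 1.04 (all tested genes -0.0041). In WT cells, replicate 2 was above replicate 1 for 34 of 40, with a median difference of 0.59 (all tested genes 0.0074). The exceptions in p53R248W/+ cells were Mad2l1, Cdc20 and Cenpa, and those in WT cells were Plk1, Cdc25c, Ttk, Espl1, Racgap1 and Kif20a. Both libraries numbered 2 were above both numbered 1 for 28 of 40 genes, against 17.5% of all tested genes. The full order from WT replicate 2 through p53R248W/+ replicate 2 and WT replicate 1 down to p53R248W/+ replicate 1 held for 18 of 40, against 4.45% of all. No label says that a replicate number marks a shared day, litter or batch. A fit with that number as a block is given with the processing alternatives.

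**Figure D2:**
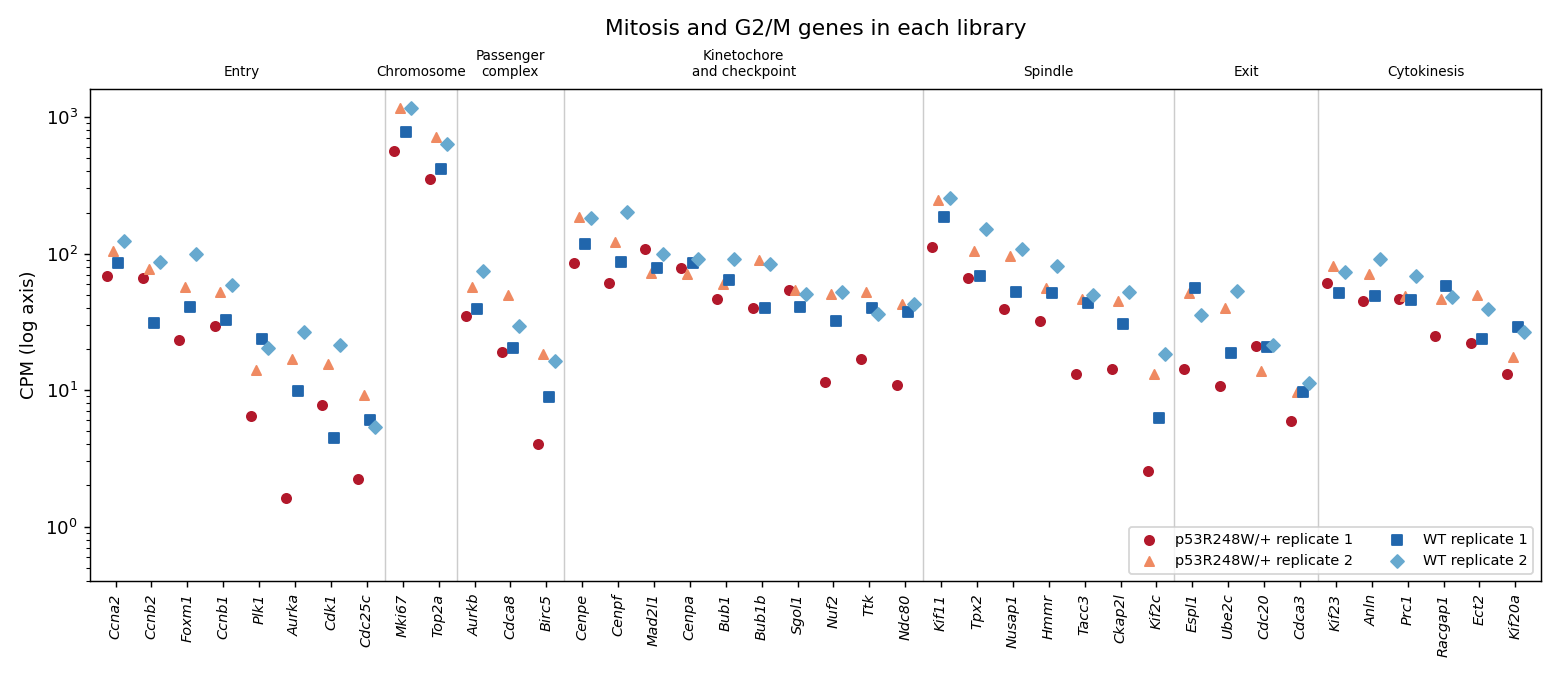
Level of each of the 40 genes in the 2 p53R248W/+ and 2 WT libraries, as CPM on a log axis, grouped by role and sorted by mean level within a role; each point is a library. p53R248W/+ replicate 1 is the lowest point for 32 genes, and the widest ratio is that of Aurka, at 1.62 CPM in p53R248W/+ replicate 1 and 26.7 CPM in WT replicate 2.

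Levels of different genes were compared per exon length, as TPM, which divides each count by exon length and scales every library to the same total. Top2a had the highest mean of the 40, at 207 and 430.4 TPM in p53R248W/+ cells against 235 and 375 TPM in WT cells. Mki67, which encodes the proliferation antigen Ki-67 of the mitotic chromosome surface, was next at 171 and 362 TPM in p53R248W/+ cells against 225 and 359.5 TPM in WT cells. Top2a was above Mki67 in all 4 libraries, although the ranges of these 2 genes overlap. The next 6 genes by mean TPM, all at or above 100 TPM, were Mad2l1, Cenpa, Ccnb2, Kif11, Ccna2 and Ube2c. The 7 genes under 20 TPM were Cdca3, Espl1, Kif20a, Cdk1, Birc5, Kif2c and Cdc25c. Cdk1 stood below its cyclin partners on this scale, at 8.41 and 17.1 TPM in p53R248W/+ cells against 4.57 and 23.3 TPM in WT cells, whereas Ccnb1 was at 38.9 and 70.9 TPM in p53R248W/+ cells against 41.0 and 78.6 TPM in WT cells. Cdc25c, the phosphatase that activates the Cdk1 complex, had the lowest mean of the 40, 9.03 TPM. Top2a and Mki67 led the order in 3 libraries, and in p53R248W/+ replicate 1 Mad2l1 lay between them at 193 TPM.

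**Figure D3:**
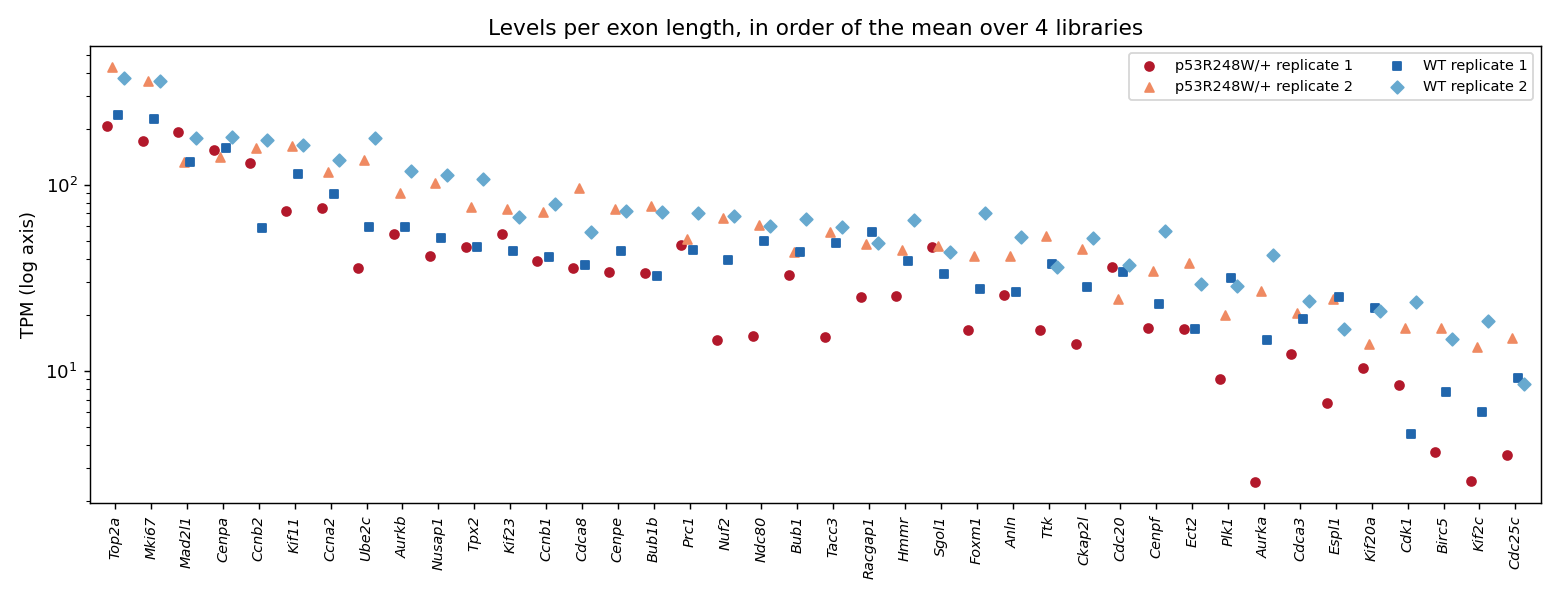
Level of each gene per exon length, as TPM on a log axis, in the order of the mean over the 4 libraries; each point is a library. Top2a and Mki67 lead the order and Cdc25c closes it, and the ranges over the 4 libraries overlap for all neighbouring genes in this order.

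Genes that start mitosis had a median log2 fold change of -0.24, with 7 of 8 negative. Plk1, the polo-like kinase that promotes mitotic entry and centrosome maturation (chromosome 7, 122159437 to 122169875, mm10), was at 6.47 and 13.9 CPM in p53R248W/+ cells against 23.8 and 20.2 CPM in WT cells. Both p53R248W/+ values lay below both WT values, and its log2 fold change of -1.15 ± 0.56 (SE, 95% interval from -2.33 to 0.025) had the smallest unadjusted p of the 40 (adjusted p = 0.824, edgeR quasi-likelihood test). Leaving out p53R248W/+ replicate 1 gave -0.66 for Plk1, and leaving out p53R248W/+ replicate 2 gave -1.77. Foxm1, the transcription factor that activates late cell cycle genes (chromosome 6, 128362994 to 128375886), was at 23.4 and 57.3 CPM in p53R248W/+ cells against 40.8 and 99.0 CPM in WT cells. The libraries of the genotypes overlapped, since WT replicate 1 was below p53R248W/+ replicate 2, and the log2 fold change was -0.83 ± 0.44 (SE, 95% interval from -1.75 to 0.082). Leaving out WT replicate 2 gave -0.053 for Foxm1, and leaving out p53R248W/+ replicate 2 gave -1.58. With the replicate number as a block the Foxm1 value was -0.79. Aurka, the kinase that matures centrosomes and builds spindle poles (chromosome 2, 172356190 to 172370570), was at 1.62 and 16.8 CPM in p53R248W/+ cells against 9.82 and 26.7 CPM in WT cells. Its log2 fold change was -1.10 ± 0.74 (SE, 95% interval from -2.66 to 0.45), and leaving out p53R248W/+ replicate 1 or 2 gave -0.12 or -3.49. With limma-voom it was -1.79.

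The 3 mitotic cyclin genes overlapped between genotypes and differed in the sign of their log2 fold changes. Ccna2, cyclin A2 of S phase and G2, was at 68.4 and 104 CPM in p53R248W/+ cells against 85.1 and 123 CPM in WT cells, with a log2 fold change of -0.28 ± 0.28 (SE, 95% interval from -0.88 to 0.31). Ccnb2, cyclin B2, was at 65.8 and 77.2 CPM in p53R248W/+ cells against 30.9 and 86.1 CPM in WT cells, with a log2 fold change of 0.28 ± 0.37 (SE, 95% interval from -0.50 to 1.07). WT replicate 1 was the low library for Ccnb2, and without WT replicate 2 its value was 1.20, against -0.27 without WT replicate 1. Ccnb1, cyclin B1, was at 29.2 and 52.2 CPM in p53R248W/+ cells against 32.4 and 58.7 CPM in WT cells, so both libraries numbered 1 were low and the genotypes overlapped. Cdk1, the kinase that all of these cyclins activate, was at 7.82 and 15.5 CPM in p53R248W/+ cells against 4.46 and 21.5 CPM in WT cells. WT replicate 1 held its lowest and WT replicate 2 its highest value, and the log2 fold change of -0.20 ± 0.69 (SE, 95% interval from -1.65 to 1.26) was 1.34 without WT replicate 2 and -0.92 without WT replicate 1. Cdc25c was at 2.22 and 9.24 CPM in p53R248W/+ cells against 6.06 and 5.33 CPM in WT cells, so the WT values lay between the p53R248W/+ values. Leaving out WT replicate 2 gave 0.0080 for Ccna2, and leaving out p53R248W/+ replicate 2 gave -0.61. Ccna2 shares 378 exon bases with Exosc9 on the other strand, and the sources used here do not give the strand setting of the counting.

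Mki67 and Top2a, the most abundant of the 40 by TPM, differed by less than the spread between replicates. Mki67 (chromosome 7, 135689788 to 135716379) was at 561 and 1161 CPM in p53R248W/+ cells against 772 and 1169 CPM in WT cells, with a log2 fold change of -0.18 ± 0.42 (SE, 95% interval from -1.32 to 0.97). Top2a, the topoisomerase that untangles chromosomes (chromosome 11, 98992947 to 99024189), was at 351 and 714 CPM in p53R248W/+ cells against 419 and 632 CPM in WT cells, with a log2 fold change of 0.013 ± 0.36 (SE, 95% interval from -0.88 to 0.91). The libraries numbered 2 nearly coincided for Mki67, and p53R248W/+ replicate 1 was the lowest for both genes. Without p53R248W/+ replicate 1 the values were 0.26 for Mki67 and 0.44 for Top2a, and without p53R248W/+ replicate 2 they were -0.80 and -0.58. Mki67 alone made up 25.1% and 27.8% of the counts of the 40 genes in p53R248W/+ cells, against 26.5% and 26.1% in WT cells.

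The chromosomal passenger complex corrects faulty kinetochore attachments and later guides cytokinesis, and its 3 genes here differed in the sign of their log2 fold changes. Aurkb, its kinase, was at 34.7 and 56.4 CPM in p53R248W/+ cells against 39.4 and 74.8 CPM in WT cells, with a log2 fold change of -0.35 ± 0.38 (SE, 95% interval from -1.14 to 0.44). Cdca8, the borealin subunit, was at 18.9 and 49.8 CPM in p53R248W/+ cells against 20.5 and 29.4 CPM in WT cells, with a log2 fold change of 0.42 ± 0.48 (SE, 95% interval from -0.59 to 1.42), the most positive of the 40. That value rested on p53R248W/+ replicate 2: it was -0.40 without that library and 1.00 without p53R248W/+ replicate 1. Birc5, survivin, was at 4.04 and 18.4 CPM in p53R248W/+ cells against 8.92 and 16.3 CPM in WT cells. For all 3 genes p53R248W/+ replicate 1 was the lowest library, and the Aurkb value was 0.19 without WT replicate 2.

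Of the 10 kinetochore and checkpoint genes, 7 had negative log2 fold changes, with a median of -0.21. Bub1, a checkpoint kinase at kinetochores (chromosome 2, 127800200 to 127831859), was at 46.2 and 59.6 CPM in p53R248W/+ cells against 64.2 and 92.0 CPM in WT cells, lower in both p53R248W/+ libraries, with a log2 fold change of -0.57 ± 0.31 (SE, 95% interval from -1.23 to 0.080). Its adjusted p was 0.825 (edgeR quasi-likelihood test), and the log2 fold change was -0.29 without WT replicate 2. Cenpf, a large kinetochore protein of G2 and mitosis, was at 61.4 and 122 CPM in p53R248W/+ cells against 86.7 and 202 CPM in WT cells, with a log2 fold change of -0.68 ± 0.40 (SE, 95% interval from -1.55 to 0.20). The high value of WT replicate 2 carried that difference, since it was 0.061 without that library. Cenpe, the kinesin that moves chromosomes to the spindle equator, was at 85.8 and 185 CPM in p53R248W/+ cells against 118 and 183 CPM in WT cells, with a log2 fold change of -0.17 ± 0.30 (SE, 95% interval from -0.82 to 0.47). The libraries numbered 2 were nearly alike for Cenpe.

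Ndc80 and Nuf2 encode partners in the Ndc80 complex, which grips microtubule ends. Ndc80 was at 10.9 and 42.6 CPM in p53R248W/+ cells against 37.6 and 42.6 CPM in WT cells, with a log2 fold change of -0.65 ± 0.48 (SE, 95% interval from -1.66 to 0.36). Nuf2 was at 11.5 and 50.9 CPM in p53R248W/+ cells against 32.3 and 52.5 CPM in WT cells. In both genes p53R248W/+ replicate 1 was far below the remaining 3 libraries, which lay close together for Ndc80. Without that library the values were 0.087 for Ndc80 and 0.27 for Nuf2. Ttk, the checkpoint kinase Mps1, was at 16.8 and 52.5 CPM in p53R248W/+ cells against 39.9 and 36.2 CPM in WT cells. Bub1b, the checkpoint protein BubR1, was at 39.8 and 89.8 CPM in p53R248W/+ cells against 40.2 and 83.9 CPM in WT cells, where both libraries numbered 1 had nearly the same value. These 2 genes overlapped between genotypes, and their directions turned with single libraries left out.

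Mad2l1, Cenpa and Sgol1 did not share the low level of p53R248W/+ replicate 1. Mad2l1, the checkpoint protein Mad2 that restrains Cdc20, was at 108 and 72.5 CPM in p53R248W/+ cells against 78.3 and 99.1 CPM in WT cells, and p53R248W/+ replicate 1 was its highest library. Its log2 fold change was 0.040 ± 0.28 (SE, 95% interval from -0.54 to 0.62). Cenpa, the histone variant that marks centromeres, was at 78.7 and 70.6 CPM in p53R248W/+ cells against 84.8 and 91.8 CPM in WT cells, which put both p53R248W/+ libraries below both WT libraries by a small margin (log2 fold change -0.24 ± 0.27 (SE, 95% interval from -0.80 to 0.32)). Sgol1, shugoshin, which protects centromeric cohesion, was at 53.9 and 54.0 CPM in p53R248W/+ cells against 40.9 and 50.5 CPM in WT cells. Its 2 p53R248W/+ values nearly coincided above both WT values, with a log2 fold change of 0.24 ± 0.33 (SE, 95% interval from -0.45 to 0.93).

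**Figure D4:**
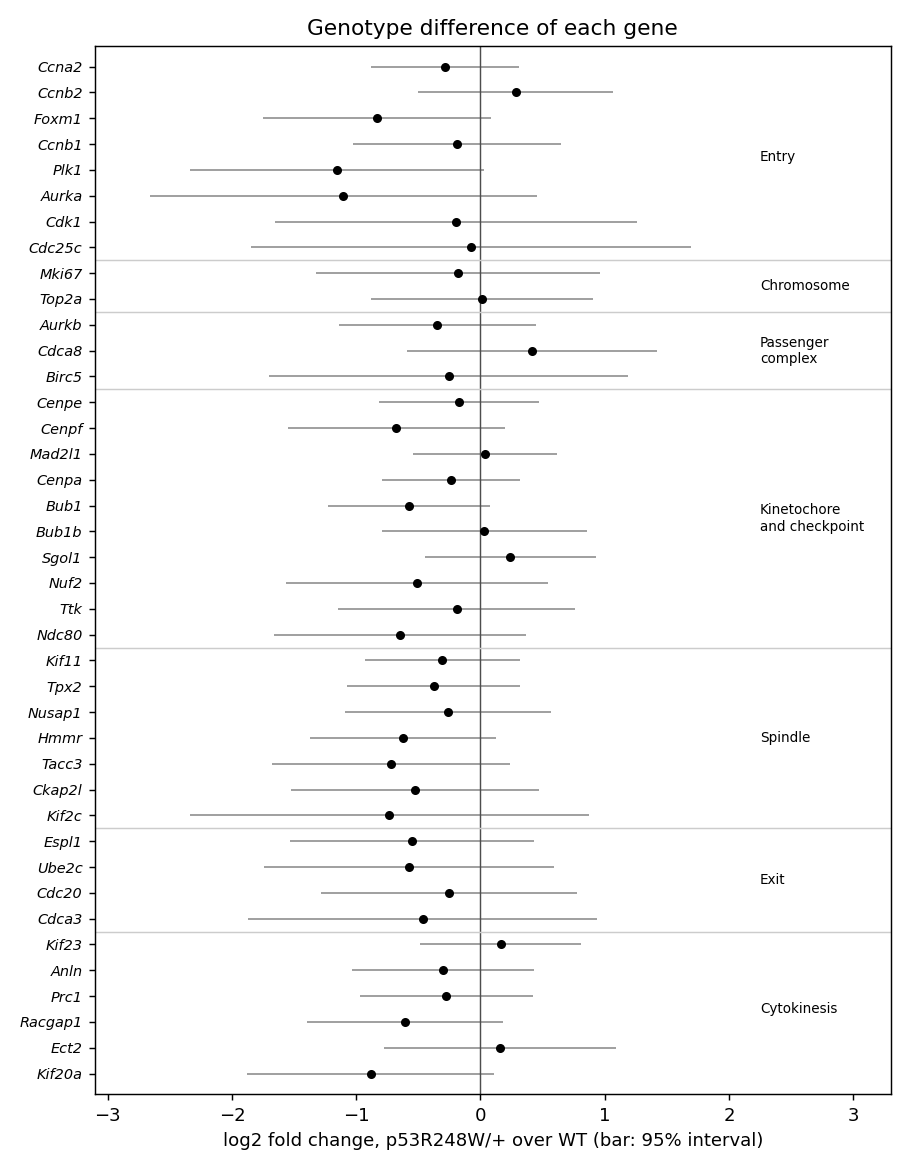
Log2 fold change of each gene (p53R248W/+ over WT, x axis) with its 95% interval from the edgeR fit, grouped by role with the gene of highest mean CPM on top. All 40 intervals include 0, and Plk1 comes nearest to excluding it (-2.33 to 0.03).

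All 7 spindle genes had negative log2 fold changes, with a median of -0.53, and for all 7 WT replicate 2 was the highest and p53R248W/+ replicate 1 the lowest library. Kif11, the kinesin Eg5 that pushes spindle poles apart, was at 112 and 247.8 CPM in p53R248W/+ cells against 187 and 253 CPM in WT cells, with a log2 fold change of -0.31 ± 0.29 (SE, 95% interval from -0.93 to 0.32). Tpx2, which targets and activates the Aurka kinase on the spindle, was at 65.8 and 105 CPM in p53R248W/+ cells against 68.6 and 151 CPM in WT cells, with a log2 fold change of -0.38 ± 0.33 (SE, 95% interval from -1.08 to 0.32). The genotypes overlapped for both genes. Hmmr, a microtubule-binding protein of spindle poles, was at 32.2 and 55.6 CPM in p53R248W/+ cells against 51.8 and 81.2 CPM in WT cells, with a log2 fold change of -0.62 ± 0.36 (SE, 95% interval from -1.37 to 0.13) that was -0.26 without p53R248W/+ replicate 1. Tacc3, which stabilises the fibres that hold kinetochores, was at 13.0 and 46.3 CPM in p53R248W/+ cells against 43.7 and 49.9 CPM in WT cells, with a log2 fold change of -0.72 ± 0.46 (SE, 95% interval from -1.68 to 0.24). For Tacc3, p53R248W/+ replicate 2 lay between the WT libraries, and its value was -0.015 without p53R248W/+ replicate 1.

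The remaining spindle genes repeated this order of the libraries. Kif2c, the microtubule-depolymerising kinesin MCAK, was at 2.56 and 13.2 CPM in p53R248W/+ cells against 6.27 and 18.4 CPM in WT cells. Ckap2l was at 14.2 and 45.2 CPM in p53R248W/+ cells against 30.2 and 52.3 CPM in WT cells. Nusap1, a protein of spindle microtubules, was at 39.6 and 96.3 CPM in p53R248W/+ cells against 52.0 and 107 CPM in WT cells, and it shares 208 exon bases with Oip5 on the other strand. In these 3 genes p53R248W/+ replicate 2 lay between the 2 WT libraries. Without WT replicate 2 the log2 fold changes were -0.065 for Kif11, 0.30 for Tpx2, 0.24 for Kif2c and 0.36 for Nusap1.

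The 4 genes of proteolysis and mitotic exit all had negative log2 fold changes, with a median of -0.51, and differed in which library was low. Ube2c, the ubiquitin-conjugating enzyme that works with the anaphase-promoting complex, was at 10.8 and 40.0 CPM in p53R248W/+ cells against 18.7 and 53.6 CPM in WT cells, with a log2 fold change of -0.58 ± 0.55 (SE, 95% interval from -1.74 to 0.59). Espl1, separase, which cleaves cohesin at anaphase, was at 14.4 and 51.2 CPM in p53R248W/+ cells against 56.2 and 35.7 CPM in WT cells, with a log2 fold change of -0.55 ± 0.47 (SE, 95% interval from -1.53 to 0.43). WT replicate 1 was its highest library, and without p53R248W/+ replicate 1 the value was 0.15. Cdc20, the activator of the anaphase-promoting complex in mitosis, was at 20.9 and 13.7 CPM in p53R248W/+ cells against 20.6 and 21.3 CPM in WT cells. The low library for Cdc20 was p53R248W/+ replicate 2 and the remaining 3 lay close together. Cdca3 was at 5.93 and 9.65 CPM in p53R248W/+ cells against 9.68 and 11.4 CPM in WT cells, and the gap between its higher p53R248W/+ value and its lower WT value was small enough that total-count scaling or a stricter filter on low counts removed it. Cdc20 shares 52 exon bases with Elovl1 on the other strand. The Ube2c value was 0.38 without WT replicate 2.

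Among the 6 cytokinesis genes, 4 had negative log2 fold changes and the median was -0.29. Kif20a, a kinesin of the spindle midzone, was at 13.1 and 17.3 CPM in p53R248W/+ cells against 29.1 and 26.4 CPM in WT cells, lower in both p53R248W/+ libraries, with a log2 fold change of -0.88 ± 0.47 (SE, 95% interval from -1.88 to 0.11) (adjusted p = 0.825, edgeR quasi-likelihood test). It shares 1115 exon bases with Cdc23 and 229 with Brd8, both on the other strand, so its reads are less certain. Racgap1, which with Kif23 forms the centralspindlin complex, was at 24.9 and 46.5 CPM in p53R248W/+ cells against 58.2 and 48.2 CPM in WT cells, also lower in both p53R248W/+ libraries, with a log2 fold change of -0.61 ± 0.37 (SE, 95% interval from -1.40 to 0.18) that was -0.19 without p53R248W/+ replicate 1. Kif23, its kinesin partner, was at 60.5 and 80.5 CPM in p53R248W/+ cells against 51.3 and 73.8 CPM in WT cells, with a log2 fold change of 0.16 ± 0.31 (SE, 95% interval from -0.48 to 0.81). The partners thus had values of opposite sign, a difference between them that was not tested, and the Kif23 value was -0.077 without WT replicate 1. Anln, the cleavage furrow scaffold anillin, was at 44.8 and 70.9 CPM in p53R248W/+ cells against 48.8 and 91.8 CPM in WT cells, with a log2 fold change of -0.30 ± 0.35 (SE, 95% interval from -1.03 to 0.43) that was 0.23 without WT replicate 2. Ect2, which activates RhoA at the cleavage site, was at 22.3 and 49.4 CPM in p53R248W/+ cells against 23.6 and 39.0 CPM in WT cells. Prc1, which bundles midzone microtubules, was at 46.4 and 48.9 CPM in p53R248W/+ cells against 46.1 and 69.0 CPM in WT cells, where 3 libraries nearly coincided and WT replicate 2 was higher.

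The low position of p53R248W/+ replicate 1 was also seen in other genes of mitosis. In a list of 80 further mitosis genes, all tested, 0 were called by edgeR, DESeq2 or limma-voom, and 58 had negative log2 fold changes, with a median of -0.21. Both p53R248W/+ libraries were below both WT libraries for 16 of the 80 and above them for 2 (16.6% and 16.9% of all tested genes). At an unadjusted p under 0.05 edgeR gave 2 lower and 0 higher, DESeq2 2 lower and limma-voom 5 lower, where 2.86%, 3.05% and 2.35% of all tested genes were lower at that level. Cdca5, sororin, which stabilises cohesin on replicated chromosomes, was at 15.0 and 26.2 CPM in p53R248W/+ cells against 48.4 and 63.8 CPM in WT cells, with a log2 fold change of -1.48 ± 0.41 (SE, 95% interval from -2.33 to -0.62) and an adjusted p of 0.824 (edgeR quasi-likelihood test). Cdca2, a mitotic targeting subunit of protein phosphatase 1, was at 18.3 and 37.1 CPM in p53R248W/+ cells against 45.1 and 59.4 CPM in WT cells, with a log2 fold change of -0.95 ± 0.40 (SE, 95% interval from -1.80 to -0.11). Sgol2a, the second shugoshin, was at 18.3 and 40.4 CPM in p53R248W/+ cells against 52.3 and 47.7 CPM in WT cells, with a log2 fold change of -0.81 ± 0.40 (SE, 95% interval from -1.66 to 0.037). These 3 genes were lower in both p53R248W/+ libraries, and p53R248W/+ replicate 1 was the lowest library for 57 of the 80. The median of the 80 was 0.05 without p53R248W/+ replicate 1 and 0.02 without WT replicate 2.

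The 15 subunits and partners of the anaphase-promoting complex, an enzyme also used outside mitosis, did not share that low position. Their median log2 fold change was 0.036, with 7 negative and 8 positive. Of the 15, 0 were called and 0 had an unadjusted p under 0.05 with edgeR, DESeq2 or limma-voom. Anapc11, the catalytic RING subunit, was at 15.97 and 9.49 CPM in p53R248W/+ cells against 5.36 and 4.69 CPM in WT cells, the value nearest to the threshold in this list (log2 fold change 1.37 ± 0.70 (SE, 95% interval from -0.11 to 2.84)). Anapc13 was at 22.2 and 18.4 CPM in p53R248W/+ cells against 35.3 and 25.6 CPM in WT cells, and Ube2s, the partner enzyme that extends ubiquitin chains, was at 13.5 and 15.8 CPM in p53R248W/+ cells against 29.7 and 14.9 CPM in WT cells. p53R248W/+ replicate 1 was the lowest library for 4 of the 15.

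Among 16 genes of the MuvB, E2F and NF-Y regulators, 0 were called by edgeR, DESeq2 or limma-voom, 11 had negative log2 fold changes and the median was -0.16. At an unadjusted p under 0.05 edgeR gave 1 higher and 0 lower, DESeq2 1 higher and limma-voom 1 higher and 2 lower. Of all tested genes these tests placed 3.01%, 2.87% and 2.3% higher, and 2.86%, 3.05% and 2.35% lower. Rbl2, which encodes the repressor p130, was at 315 and 289.6 CPM in p53R248W/+ cells against 194 and 258 CPM in WT cells, higher in both p53R248W/+ libraries, with a log2 fold change of 0.42 ± 0.19 (SE, 95% interval from 0.028 to 0.82) and an adjusted p of 0.824 (edgeR quasi-likelihood test). Rbl2 shares 418 exon bases with Aktip on the other strand. Mybl2, which encodes the activator B-Myb, was at 9.16 and 21.5 CPM in p53R248W/+ cells against 33.9 and 26.9 CPM in WT cells, with a log2 fold change of -1.04 ± 0.50 (SE, 95% interval from -2.09 to 0.0087). Lin54, the MuvB subunit that contacts the CHR, was at 36.6 and 62.2 CPM in p53R248W/+ cells against 91.3 and 65.1 CPM in WT cells, with a log2 fold change of -0.69 ± 0.33 (SE, 95% interval from -1.38 to 0.0080). Mybl2 and Lin54 were lower in both p53R248W/+ libraries. Cdkn1a, the p21 gene, was at 16.8 and 15.6 CPM in p53R248W/+ cells against 74.3 and 39.9 CPM in WT cells, with a log2 fold change of -1.81 ± 0.44 (SE, 95% interval from -2.74 to -0.89) and an adjusted p of 0.824 (edgeR quasi-likelihood test). WT replicate 1 was its highest library and the genotypes did not overlap, unlike most of the 40 mitosis genes.

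The position of each library was set beside that of other gene lists as the median deviation, in log2(CPM + 0.5), of each gene from its own mean over the 4 libraries. For the 40 mitosis and G2/M genes it was -0.63 in p53R248W/+ replicate 1 and 0.36 in p53R248W/+ replicate 2, against -0.18 in WT replicate 1 and 0.48 in WT replicate 2. For the 80 further mitosis genes it was -0.44 in p53R248W/+ replicate 1 and 0.24 in p53R248W/+ replicate 2, against -0.087 in WT replicate 1 and 0.33 in WT replicate 2. For 40 replication and G1/S genes it was -0.41 in p53R248W/+ replicate 1 and 0.10 in p53R248W/+ replicate 2, against 0.12 in WT replicate 1 and 0.26 in WT replicate 2. Among these 40 genes edgeR, DESeq2 and limma-voom called 0, and 4, 4 and 6 were lower at an unadjusted p under 0.05, with 0 higher, where these tests placed 2.86%, 3.05% and 2.35% of all tested genes lower. The replication genes shared the low position of p53R248W/+ replicate 1, while their 2 WT libraries lay closer together than those of the mitosis genes. For the 12 LSK identity genes it was 0.16 in p53R248W/+ replicate 1 and 0.064 in p53R248W/+ replicate 2, against -0.19 in WT replicate 1 and -0.055 in WT replicate 2.

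**Figure D5:**
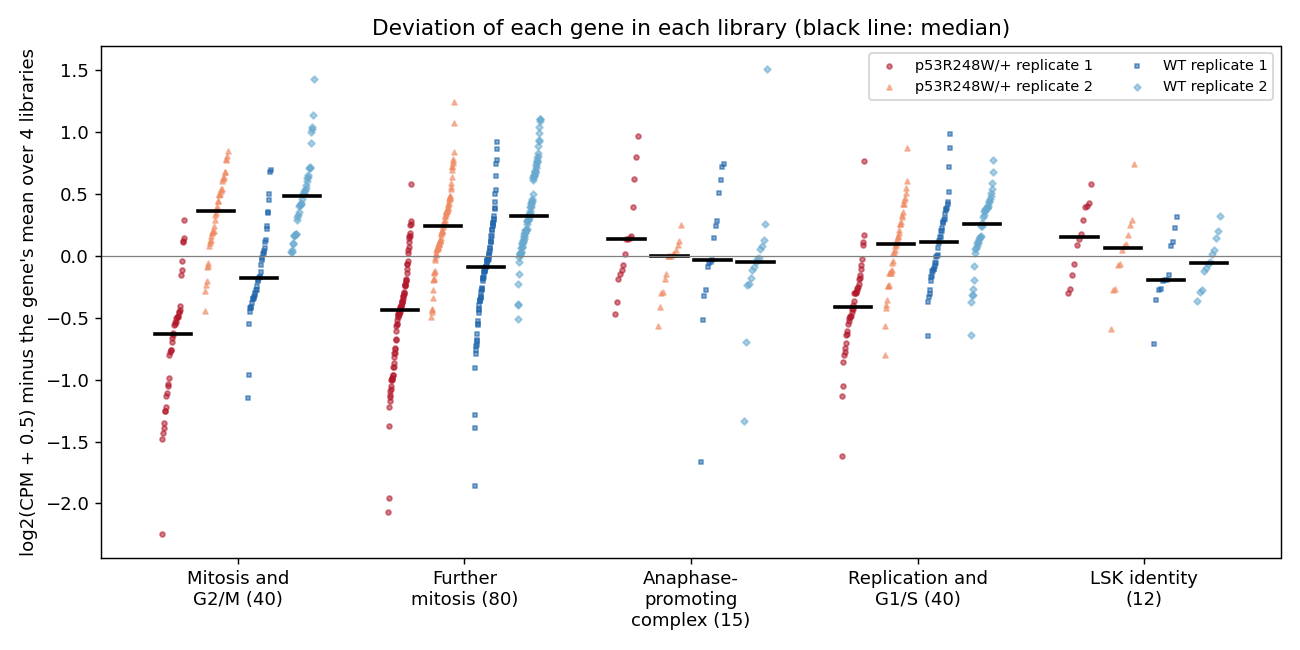
Deviation of each gene from its own mean over the 4 libraries, in log2(CPM + 0.5), for 5 gene lists; each point is a gene in a library and the black lines are medians. In the mitosis and G2/M list the medians are -0.63 and 0.36 in p53R248W/+ replicates 1 and 2, against -0.18 and 0.48 in WT replicates 1 and 2, whereas the anaphase-promoting complex and LSK identity lists stay between -0.19 and 0.16.

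Markers of other marrow cells were compared across the same libraries. The 12 erythroid markers summed to 869 and 1045 CPM in p53R248W/+ cells against 705 and 953 CPM in WT cells, of which Car2 alone gave 738 and 815 CPM in p53R248W/+ cells against 514 and 812 CPM in WT cells. Of the 6 that were tested, 3 had negative and 3 positive log2 fold changes. Gata1, an erythroid transcription factor, was at 0.809 and 0.165 CPM in p53R248W/+ cells against 6.76 and 5.54 CPM in WT cells, with a log2 fold change of -3.54 ± 1.21 (SE, 95% interval from -6.07 to -1.01) and an adjusted p of 0.824 (edgeR quasi-likelihood test). The p53R248W/+ values of Gata1 rest on 12 and 2 counts. The second lies under the level of 3 counts in that library, 0.248 CPM, so the size of the fold change is uncertain. The globin genes Hba-a1, Hba-a2, Hbb-bs and Hbb-bt had 0 counts in all 4 libraries. The 13 granulocyte and monocyte markers summed to 1025 and 818 CPM in p53R248W/+ cells against 1709 and 596 CPM in WT cells, highest in WT replicate 1. Most of that sum was Mpo, at 627 and 543 CPM in p53R248W/+ cells against 1272 and 314 CPM in WT cells, whereas Ngp, S100a8, S100a9, Ltf and Camp were lowest in WT replicate 1. Of the 12 tested, 6 had negative and 6 positive log2 fold changes. The 12 B cell and plasma cell markers summed to 124 and 70.2 CPM in p53R248W/+ cells against 66.96 and 57.0 CPM in WT cells, highest in p53R248W/+ replicate 1, the library lowest in mitosis genes, and Pax5 had 0 counts in all 4 libraries. Jchain alone gave 78.4 and 45.1 CPM of these sums in p53R248W/+ cells against 58.4 and 42.5 CPM in WT cells, and it overlapped between genotypes. The 20 immediate early genes, which respond to cell handling, summed to 4468 and 5125 CPM in p53R248W/+ cells against 9346 and 5762 CPM in WT cells, also highest in WT replicate 1. All 20 had negative log2 fold changes, with a median of -0.77, and 0 were called by edgeR, with 10 at an unadjusted p under 0.05 (12 by DESeq2 and 12 by limma-voom), all lower, where 2.86% of all tested genes were lower at that level (3.05% by DESeq2 and 2.35% by limma-voom). T and NK cell markers summed to 90.1 and 79.7 CPM in p53R248W/+ cells against 73.2 and 87.0 CPM in WT cells, and mast cell and basophil markers to 381 and 364 CPM in p53R248W/+ cells against 377 and 407 CPM in WT cells. Megakaryocyte markers summed to 965 and 748 CPM in p53R248W/+ cells against 1084 and 1112 CPM in WT cells, and stromal and endothelial markers to 232 and 182 CPM in p53R248W/+ cells against 149 and 113 CPM in WT cells. Of 8 tested megakaryocyte markers 7 had negative log2 fold changes. All 5 tested B cell and plasma cell markers and all 5 tested stromal and endothelial markers had positive ones. At an unadjusted p under 0.05 edgeR placed 3 megakaryocyte markers lower (2.86% of all tested genes). It placed 1 B cell and 1 stromal marker higher (3.01% of all), and called 0 in these lists. The part of these lists in the differences between libraries was not tested.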

How the data were processed

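The authors deposited 1 table of raw read counts per gene for the 4 libraries. The submitters' processing notes name build mm10 and, with no role or order, STAR 2.7.10a, featureCounts of Subread 2.0.3, edgeR 3.40.2 and FastQC 0.11.5. Strand setting and treatment of multi-mapping reads are not given in the sources used here. Columns were assigned to samples by the genotype and number in their names.

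Genes were filtered with filterByExpr (minimum count 10, minimum total 15), scaled by TMM and tested by quasi-likelihood in edgeR 4.0.16 (robust=TRUE, legacy=FALSE, R 4.3.3). The model held genotype alone, with Benjamini-Hochberg adjustment over all 13296 tested genes. SEs and 95% intervals derive from that test. TPM was computed from counts and exon lengths. Alternatives were DESeq2 1.42.0, limma-voom 3.58.1, other scalings and filters, a replicate block, an exon length trend, and leaving out each library.

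The 40 genes and all lists were chosen with earlier results of these data known, so no list was tested as a set. All 40 genes are reported. Full statistics were given for the 2 most abundant genes of each role and the 10 with the smallest unadjusted p, and of the other pathway lists up to 3 genes with the smallest p were named. Car2, Camp, Cdkn1a, Gata1, Jchain, Kit, Ltf, Mpo, Ngp, S100a8, S100a9, Pax5, Trp53 and the globin genes, and intervals for Cenpa, Sgol1, Mad2l1 and Cdk1, were added after their values were seen. Replicate numbers were not taken as pairs, since no label says that they pair samples. Over all tested genes, the deviations of the libraries numbered 1 from their genotype means correlated at r = 0.00491. That value was not computed for the 40 genes alone, so it does not exclude a shared replicate effect in them. Both libraries numbered 2 were above both numbered 1 for 28 of the 40.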

Additional observations from a re-analysis of the deposited data

How the results depend on the processing

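None of the 40 genes was called under any alternative run. The median log2 fold change of the 40 stayed between -0.37 and -0.27 under the scalings, filters, tests, exon length trend and replicate block, and 31 to 33 genes were negative. Leaving out 1 library gave medians from -0.82 to 0.12, 16 to 37 negative genes and 12 to 35 genes without overlap. Comparing 2 libraries with 1 itself makes non-overlap more frequent. Non-overlap was not counted over all tested genes in these fits, so no conclusion is drawn from the 12 to 35 genes. Over the whole table DESeq2 called 6 genes, and fits without 1 library called 0 to 4. With the replicate number as a block in edgeR, 0 of all genes and 0 of the 40 were called. In that fit 2 of the 40, Cenpf and Foxm1, had an unadjusted p under 0.05, against 758 of all 13296 tested genes. The median with the block was -0.27, Top2a turned to -0.033, and no other direction changed. Cdc25c turned to 0.0067 with DESeq2, and with limma-voom Cdk1, Top2a and Bub1b turned to 0.12, -0.076 and -0.0062. The cause of these turns was not tested. With single libraries left out, the log2 fold changes that turned ran, among entry and chromosome genes, for Ccna2 from -0.61 to 0.0080, Ccnb1 from -0.64 to 0.31, Ccnb2 from -0.27 to 1.20, Cdc25c from -1.36 to 0.70, Cdk1 from -0.92 to 1.34, Mki67 from -0.80 to 0.26 and Top2a from -0.58 to 0.44. Among passenger and kinetochore genes they ran for Aurkb from -0.74 to 0.19, Birc5 from -1.64 to 0.54, Cdca8 from -0.40 to 1.00, Bub1b from -0.64 to 0.66, Cenpe from -0.81 to 0.30, Cenpf from -1.24 to 0.061, Mad2l1 from -0.29 to 0.28, Ndc80 from -1.88 to 0.087, Nuf2 from -1.89 to 0.27 and Ttk from -1.18 to 0.46. Among spindle, exit and cytokinesis genes they ran for Ckap2l from -1.54 to 0.13, Kif11 from -0.97 to 0.17, Kif2c from -2.26 to 0.24, Nusap1 from -1.01 to 0.36, Tpx2 from -0.84 to 0.30, Espl1 from -1.68 to 0.15, Ube2c from -1.75 to 0.38, Anln from -0.68 to 0.23, Ect2 from -0.49 to 0.66, Kif23 from -0.077 to 0.45 and Prc1 from -0.54 to 0.047. The fold change was weakly related to exon length across the 40 genes (Pearson r = -0.0488, n = 40 genes of the same libraries). A biological coefficient of variation of 46% with 2 libraries per genotype limits what could be detected.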
